A study of Mus musculus with 352 samples.

Results

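The genes described here are 10 that store triglyceride in lipid droplets or release it: the coat proteins Plin2, Plin3, Plin4 and Plin5, the lipases and their partners Pnpla2, Abhd5, G0s2 and Lipe, and the acyltransferases Dgat1 and Dgat2. They were chosen by name, as the rows of a muscle expression table whose Ensembl identifiers map to these symbols. All 10 were among the 14413 genes of the table, and all 10 were among the 9862 genes kept for testing (mean log2 FPKM of at least 0 over all libraries).

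A lipid droplet is a core of neutral lipid, mostly triglyceride, under a coat of proteins. In muscle fibres DGAT enzymes add the last fatty acid to make triglyceride, perilipins on the droplet surface govern access to it, and a cascade of lipases takes the fatty acids off again for oxidation in mitochondria. The first lipase, ATGL (encoded by Pnpla2), is activated by its co-activator CGI-58 (Abhd5) and inhibited by the small protein G0S2, and hormone-sensitive lipase (Lipe) acts on the diglyceride that ATGL leaves.

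The study sequenced tibialis anterior muscle, a mostly fast-twitch muscle of the lower leg, from C57BL/6 mice at zeitgeber times (ZT) 0, 4, 8, 12, 16 and 20 h. It held 1 library for each mouse, in 15 groups of 22 to 25 mice, with 3 to 5 mice for each group and time. Wild-type mice (WT) were compared with Bmal1(stopFL/stopFL), Cre(-/-) mice, here KO, in which a stop cassette blocks the clock gene Bmal1 throughout the body. The other mice carried the same stopFL alleles and a Cre transgene that restores Bmal1: Hsa-Cre(-/tg), driven by the skeletal actin promoter in muscle fibres (Mu-RE), Syt10-Cre(-/tg), driven by a promoter active mainly in the suprachiasmatic nucleus of the brain (Br-RE), or both transgenes (RE-RE). Each genotype was taken at 10 to 12 weeks, written here as 10 weeks, and at 26 weeks with food ad libitum. WT, KO and Mu-RE mice of 26 weeks were also taken under time-restricted feeding (TRF). Wild-type old mice of 85 to 116 weeks were taken ad libitum and under TRF. The labels give the mice as separate animals, so the p-values measure the spread between mice.

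Sequencing depth, estimated from the steps between low values, was 14.5 to 47.6 M reads a library with a median of 22.3 M. In each gene the male and female means were equal within 1e-05 in 3 sets of libraries, and each set of Br-RE and RE-RE mice had the same gene means as the other libraries of its age. The sexes were therefore not compared, and levels in Br-RE and RE-RE mice were set only against each other. 9 libraries stood apart from their groups, among them replicates 1 and 13 of RE-RE mice at 10 weeks. The Arntl (Bmal1) level was not lower in KO, at 3.02 to 3.79 log2 FPKM against 0.78 to 5.14 in WT mice of 10 weeks, so it did not check the KO label. Of the genes that define adipocytes, Lep, Plin1 and Cidec had mean values of -4.50, -1.39 and -0.98 log2 FPKM over all libraries, and Adipoq -0.05. Of the 12 adipocyte markers listed, 10 were in the table and 3 of these, Cfd, Thrsp and Fabp4, were kept for testing. The summed markers had group medians from 53.2 FPKM (old mice ad libitum) to 93.0 FPKM (KO under TRF). The other listed genes in the table had means under 0 log2 FPKM, so these sums come mostly from the 3 kept. Which cells gave this RNA was not tested. Because whole muscle was used, fewer cells of a type and less RNA per cell cannot be told apart.

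Pnpla2 (ENSMUSG00000025509, chromosome 7, 141455198 to 141460743 in GRCm38) had the highest level of the 10 genes, with a mean of 6.41 log2 FPKM over all mice, equal to 85.1 FPKM. The coat gene Plin4 (ENSMUSG00000002831, chromosome 17, 56100591 to 56109803) followed at 5.49, and G0s2 (ENSMUSG00000009633, chromosome 1, 193272161 to 193273217) at 4.97. Plin5 (ENSMUSG00000011305, chromosome 17, 56111601 to 56117596), the perilipin of oxidative tissues that tethers droplets to mitochondria, had a mean of 4.10. These are levels per length, so they can be set against each other: the lipase that starts lipolysis was the most abundant transcript and the 4 genes above came before every other member.

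Plin3 (ENSMUSG00000024197, chromosome 17, 56277476 to 56292873) had a mean level of 3.67 log2 FPKM and Dgat2 (ENSMUSG00000030747, chromosome 7, 99153658 to 99182719) of 3.49. Abhd5 (ENSMUSG00000032540, chromosome 9, 122351608 to 122381524) and Plin2 (ENSMUSG00000028494, chromosome 4, 86648386 to 86670060) were close at 2.99 and 2.92. Lipe (ENSMUSG00000003123, chromosome 7, 25379527 to 25398710) stood at 1.98 and Dgat1 (ENSMUSG00000022555, chromosome 15, 76502015 to 76511953) was lowest at 1.63. At the median depth the means correspond to between 211 reads (Dgat1) and 5786 reads (Plin4), so none of the genes was limited by a lack of reads. Plin4 and Plin5 are neighbours on the same strand, 1797 bases apart, and Plin3 lies 159879 bases from Plin5.

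Group means spread very unequally. Plin5 ranged over 1.78 on the log2 scale between its lowest and highest group outside Br-RE and RE-RE, Dgat2 over 1.70, G0s2 over 1.66 and Plin3 over 1.04. Dgat1 ranged over 0.31 and Plin2 over 0.37. The plot of levels by group shows this for every mouse.

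**Figure D1:**
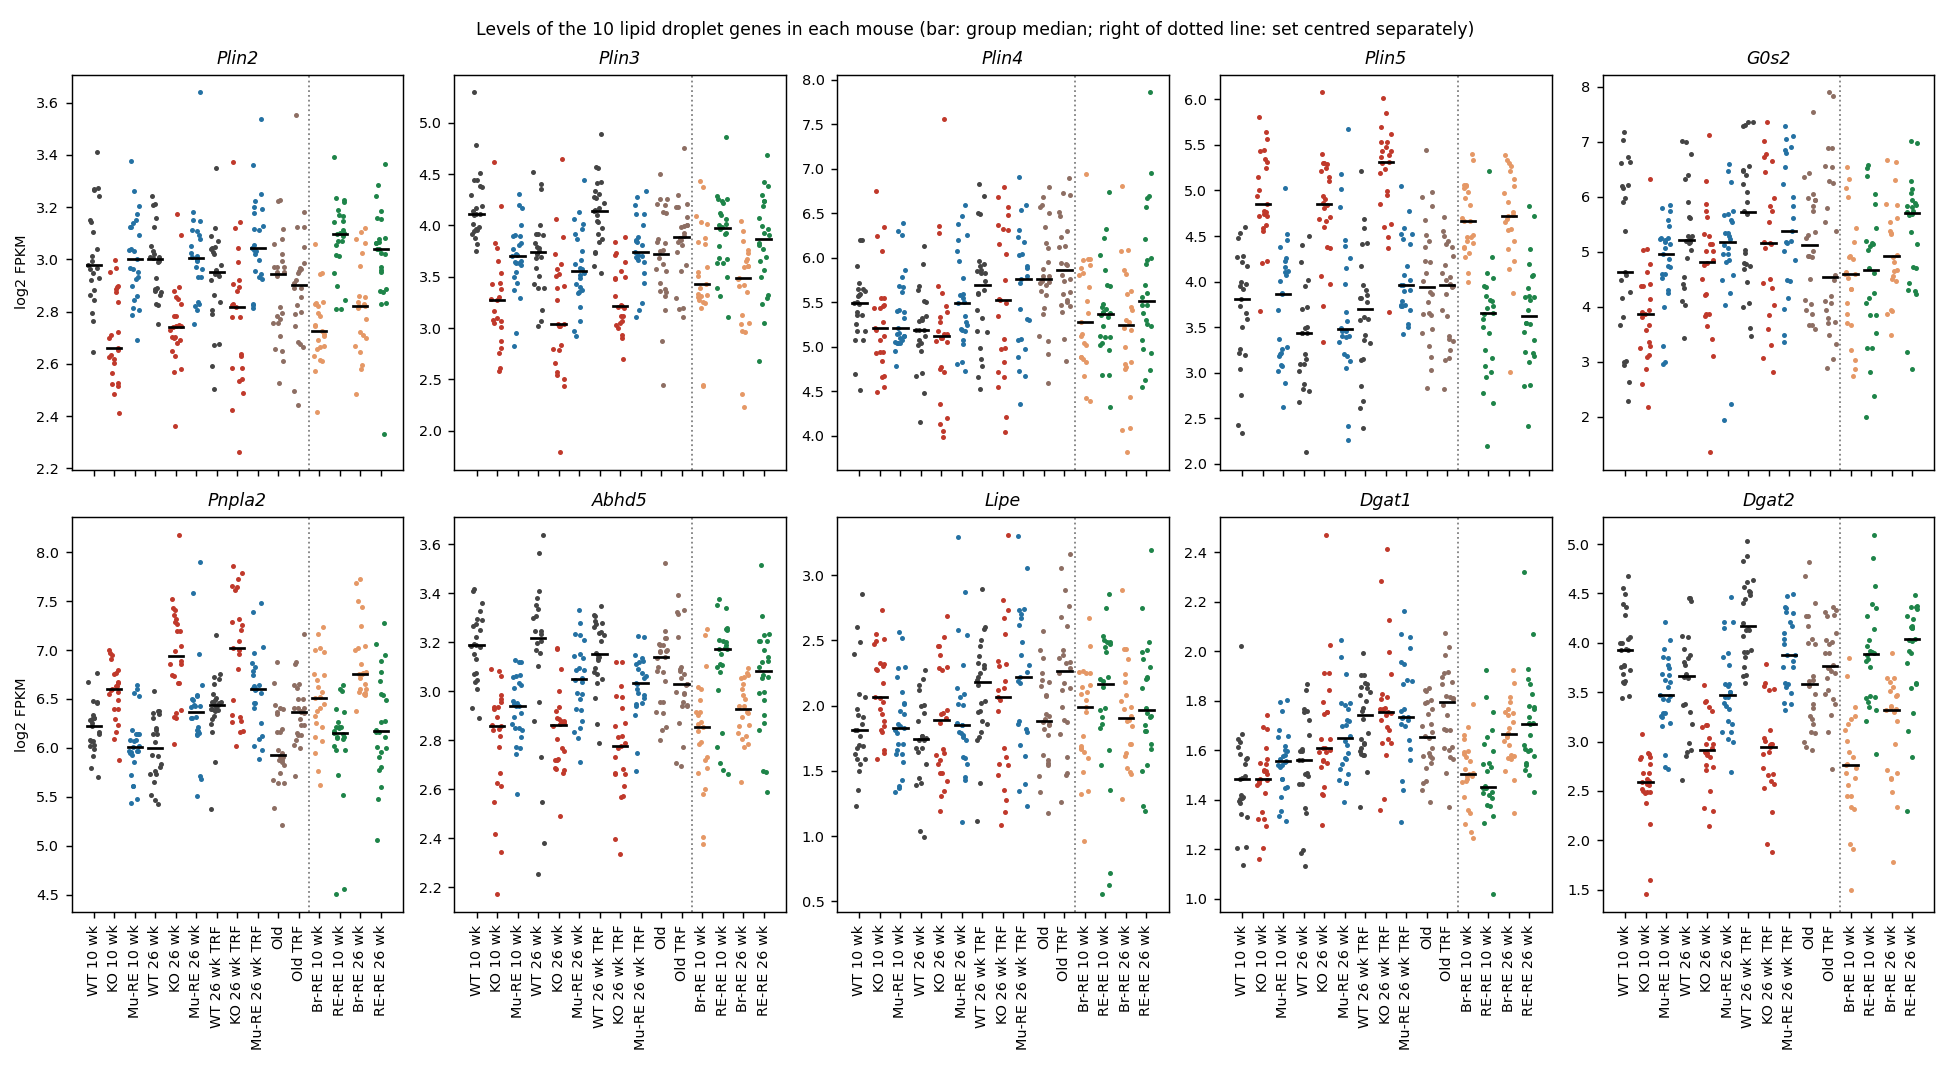
Level of each gene (log2 FPKM, y axis) in every mouse (points) of the 15 groups (x axis), with the group median as a bar; wk is weeks, and groups without TRF were fed ad libitum. Groups right of the dotted line were centred separately and are compared only with each other. Plin5 has higher and Dgat2 lower medians in KO than in WT and in Br-RE than in RE-RE mice of the same age and feeding, while Dgat1 lies between 1.02 and 2.47 in all mice.

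The promoters of 3 members are shown because BMAL1 and its partner CLOCK bind the E-box CACGTG, and nuclear receptors such as REV-ERB, ROR and PPAR bind half-sites with the letters AGGTCA. The sequences run from 250 bases before to 10 bases after the RefSeq start (GRCm38.p6), and matches on either strand are in capitals. The search covered E-box CACGTG, half-site AGGTCA, the ROR element (an A, any 2 bases and a T before a half-site), D-box TTATGTAA and the direct repeat of half-sites 1 base apart. Promoters were found for 8 of the 10 members. The Plin2 promoter lies at chr4:86670050-86670309 on the minus strand. It holds an E-box that begins 4 bases before the start and runs over it. A ROR element, in which a half-site lies, begins 218 bases before the start. The Lipe promoter at chr7:25395978-25396237, minus strand, holds an E-box 155 bases before the start, and a second Lipe promoter holds none of the motifs. The Plin5 promoter at chr17:56117539-56117798, minus strand, holds a half-site 170 bases before the start.
Plin2: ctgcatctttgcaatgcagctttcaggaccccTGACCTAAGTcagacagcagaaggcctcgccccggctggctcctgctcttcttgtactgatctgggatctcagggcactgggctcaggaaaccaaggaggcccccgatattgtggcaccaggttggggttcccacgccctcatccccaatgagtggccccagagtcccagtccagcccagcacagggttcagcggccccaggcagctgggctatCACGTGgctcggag
Lipe: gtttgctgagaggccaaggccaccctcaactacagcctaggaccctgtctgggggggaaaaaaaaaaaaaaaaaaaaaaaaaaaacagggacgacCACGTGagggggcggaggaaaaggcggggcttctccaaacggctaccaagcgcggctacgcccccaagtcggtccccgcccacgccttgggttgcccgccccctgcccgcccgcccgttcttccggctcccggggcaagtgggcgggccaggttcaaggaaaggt
Plin5: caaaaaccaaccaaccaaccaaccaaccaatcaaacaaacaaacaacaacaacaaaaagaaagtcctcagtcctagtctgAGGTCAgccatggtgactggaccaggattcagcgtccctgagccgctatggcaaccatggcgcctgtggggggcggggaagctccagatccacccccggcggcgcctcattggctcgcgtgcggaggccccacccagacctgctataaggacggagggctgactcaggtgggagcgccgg
Of 32851 mouse promoters of 300 bases, 7.15% held the E-box, 16.3% the half-site, 0.700% the ROR element, 0.938% the D-box and 0.0396% the direct repeat. Abhd5 had a half-site 69 bases before its start, and a second Plin5 promoter one 13 bases after its start. None of the 5 motifs was in these windows of G0s2, Pnpla2, Plin3 or Plin4. A match is a description of letters and not a bound site.

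The question of the first comparison was what loss of Bmal1 does to these transcripts. At 10 weeks 8 of the 10 members differed between KO and WT mice, 3 higher and 5 lower in KO, beside 41.8% of all genes tested. Plin5, Pnpla2 and Lipe were higher, and Plin2, Plin3, G0s2, Abhd5 and Dgat2 were lower. Plin4 and Dgat1 did not pass the test. Of the coat genes 1 was thus higher and 2 lower, and of the lipases and their partners 2 were higher and 2 lower. Of the acyltransferases 1 was lower, and the other had a median of 1.48 log2 FPKM in both groups.

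Among the coat genes Plin5 moved most. At 10 weeks it ranged from 2.34 to 4.60 log2 FPKM in 23 WT mice with a median of 3.80, and from 3.67 to 5.80 in 23 KO mice with a median of 4.86. The groups overlapped, with 5 of 23 KO mice inside the WT range. The difference of levels, KO minus WT, was 1.24 on the log2 scale (SE 0.15, adjusted p = 2.4e-09), which is 2.36-fold, and KO was higher at 6 of 6 times. It was 0.60 at ZT0 and 2.20 at ZT16, the time at which Plin5 was lowest in WT.

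Plin3 (TIP47), a perilipin found in most tissues that coats small, new droplets, went the other way. In WT mice of 10 weeks it lay between 3.75 and 5.29 log2 FPKM around a median of 4.11, and in KO mice between 2.59 and 4.61 around 3.27. Only 4 of 23 KO mice reached into the WT range. The level difference was -0.90 (SE 0.12, adjusted p = 1.1e-07), and KO was lower at 6 of 6 times. Plin2 (adipophilin), a coat protein whose amount usually follows the triglyceride stored, was lower by less: its medians were 2.98 in WT and 2.66 in KO, with a difference of -0.31 (SE 0.05, adjusted p = 2.7e-06).

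Plin4, a perilipin with a long repeat region and high levels in muscle and fat, had medians of 5.49 in WT and 5.21 in KO mice of 10 weeks. Its difference of -0.11 (SE 0.14) did not pass the test at this or the other settings of age and feeding. So of the neighbouring pair on chromosome 17, Plin5 differed and Plin4 did not pass, but the difference between them was not tested.

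The same 2 opposite changes were compared within each mouse, a pair picked after the values had been seen. Plin5 minus Plin3 was above 0 in 23 of 23 KO mice of 10 weeks, 24 of 24 of 26 weeks and 23 of 23 under TRF. It was above 0 in 5 of 23, 6 of 22 and 6 of 24 WT mice of the same settings, with medians of -0.52, -0.29 and -0.37 against 1.60, 1.59 and 1.92 in KO. In a typical KO muscle Plin5 was thus the more abundant of the pair, and in a typical WT muscle Plin3 was.

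At 26 weeks 6 of 10 members differed between KO and WT ad libitum, 2 higher and 4 lower, beside 46.3% of all genes. Under TRF at 26 weeks 5 of 10 differed, 2 higher and 3 lower, beside 51.8%. Plin5 was higher by 1.40 (SE 0.17) and 1.48 (SE 0.15), with adjusted p of 2.8e-09 and 5.8e-11. Plin3 was lower, with differences of -0.56 (SE 0.15) and -0.83 (SE 0.09). Plin2 passed at 26 weeks ad libitum with a difference of -0.24 (SE 0.05) and missed under TRF at -0.13 (SE 0.06, adjusted p = 0.053). The plot of level differences shows these settings side by side.

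**Figure D2:**
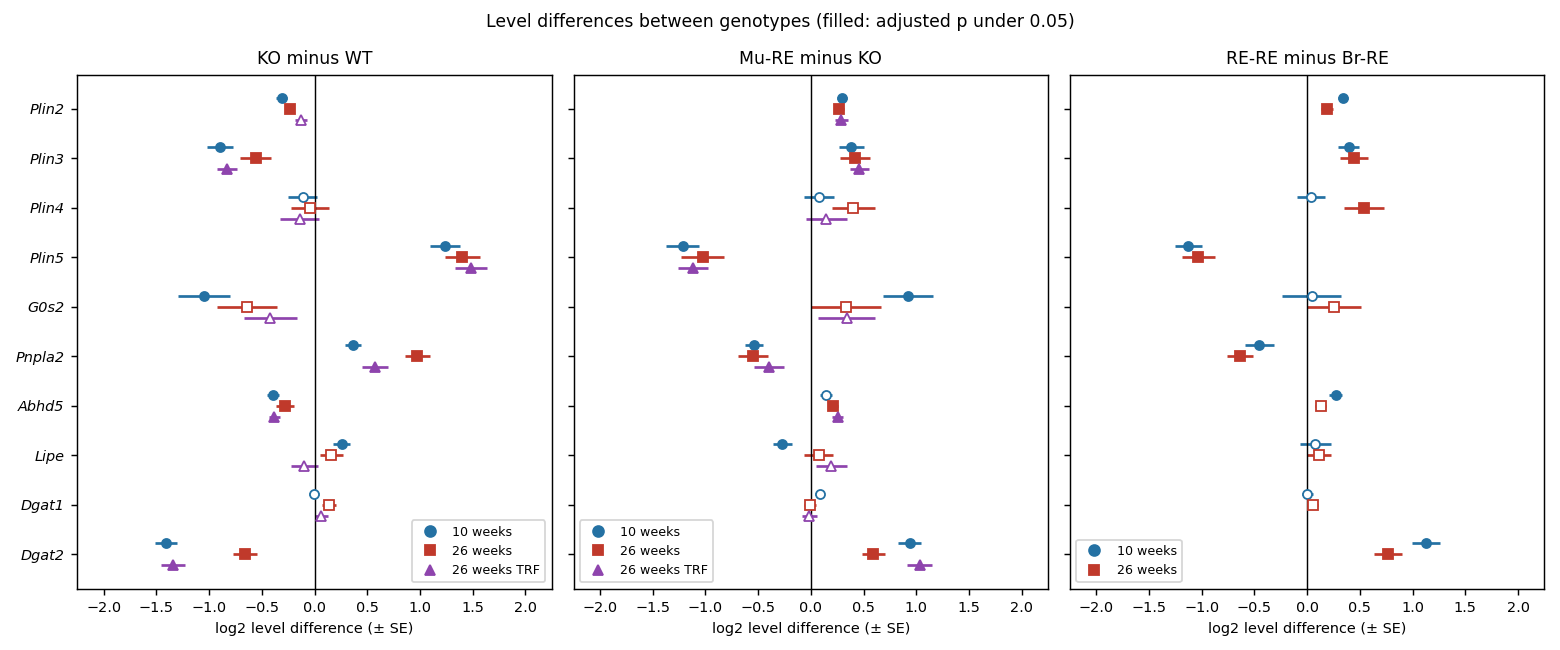
Difference of level (log2, x axis; bars are SE) for each gene (y axis) between KO and WT (left), Mu-RE and KO (middle) and RE-RE and Br-RE mice (right), by age and feeding; filled symbols have an adjusted p under 0.05. The first 2 panels share the KO mice. Plin5 and Pnpla2 are higher in KO than in WT at all 3 settings, and Plin3 and Dgat2 lower.

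Pnpla2 encodes ATGL, the rate-limiting lipase of triglyceride breakdown. At 10 weeks it ranged from 5.71 to 6.76 log2 FPKM in WT with a median of 6.22 and from 5.88 to 7.0 in KO with a median of 6.60, so the ranges overlapped widely. The level difference was 0.36 (SE 0.08, adjusted p = 0.00023) and KO was higher at 6 of 6 times. At 26 weeks it was 0.97 (SE 0.12, adjusted p = 2.7e-09), a 1.97-fold difference, and under TRF 0.57 (SE 0.13, adjusted p = 0.00016). The rise in difference from 10 to 26 weeks was itself tested: it was 0.61 (SE 0.14, adjusted p = 0.00084), beside 18.8% of all genes.

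Abhd5, the co-activator that ATGL needs for full activity, was lower in KO at each setting. Its medians at 10 weeks were 3.19 in WT, with a range of 2.89 to 3.42, and 2.86 in KO, with a range of 2.17 to 3.09. Here 10 of 23 KO mice lay inside the WT range. The level differences were -0.39 (SE 0.06) at 10 weeks, -0.28 (SE 0.08) at 26 weeks and -0.38 (SE 0.05) under TRF, with a largest adjusted p of 0.0060. Lipase and co-activator thus differed in opposite directions: within a mouse of 10 weeks, Pnpla2 minus Abhd5 had a median of 3.06 in WT and 3.82 in KO, a description of a pair chosen after its values were seen.

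G0s2, the inhibitor of ATGL, had the widest spread of any member. In WT mice of 10 weeks it ran from 2.29 to 7.18 log2 FPKM around a median of 4.64, and in KO from 2.18 to 6.32 around 3.88. The groups overlapped in nearly their whole range, and the mean difference was -1.05 (SE 0.25, adjusted p = 0.00070). By time the differences were -2.23, -2.28 and -1.45 at ZT12, ZT16 and ZT20 against -0.38, 0.07 and -0.36 at ZT0, ZT4 and ZT8. At 26 weeks the difference was -0.64 (SE 0.28, adjusted p = 0.061) and under TRF -0.42 (SE 0.25, adjusted p = 0.16), neither of which passed.

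Lipe, hormone-sensitive lipase, was higher in KO at 10 weeks by 0.26 (SE 0.08, adjusted p = 0.0088), with medians of 1.81 in WT and 2.06 in KO. All 23 KO mice lay inside the WT range. The call was lost with 1 variance for all 15 groups (adjusted p = 0.078) and when the third mouse of each time was left out (adjusted p = 0.14). At 26 weeks and under TRF the differences were 0.16 (SE 0.11) and -0.10 (SE 0.13) and did not pass.

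Dgat2, an acyltransferase of the last step of triglyceride synthesis that sits on the endoplasmic reticulum and the droplet, separated the groups completely at 10 weeks. Its values were 3.44 to 4.68 log2 FPKM in WT (median 3.93) and 1.46 to 3.08 in KO (median 2.59). No mouse of one group lay in the range of the other. The level difference was -1.41 (SE 0.10, adjusted p = 2.8e-15), so WT was 2.65-fold higher. At 26 weeks the ranges overlapped, 2.61 to 4.46 in WT and 2.15 to 3.58 in KO, and the difference was -0.66 (SE 0.11, adjusted p = 5.8e-06). Under TRF it was -1.34 (SE 0.11, adjusted p = 1.4e-13), with 2 of 23 KO mice inside the WT range.

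The KO minus WT difference of Dgat2 was smaller in size at 26 than at 10 weeks by 0.75 (SE 0.16, adjusted p = 0.00021). Dgat2 was lower at 26 than at 10 weeks in WT and higher in KO, as given with the ages. Dgat1, the other enzyme of this step, differed by 0.14 (SE 0.07) at 26 weeks and 0.06 (SE 0.06) under TRF and passed at no setting.

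Of 12 adipocyte markers, 3 were abundant enough to test and 2 of them were higher in KO at each setting. All marker counts at 10 weeks stand beside the 41.8% of all genes called there. The summed adipocyte markers were 41.3 to 91.5 FPKM in WT and 51.4 to 106 in KO mice of 10 weeks, with medians of 61.2 and 77.7. At 10 weeks 4 of 4 macrophage markers tested were lower in KO, and their sum was 18.1 to 62.3 FPKM in WT and 7.88 to 28.4 in KO. For endothelial cells 6 of 8 markers were higher, with sums of 92.6 to 156 FPKM in WT and 102 to 177 in KO. Fast-fibre markers summed to 31059 to 47303 FPKM in WT and 43716 to 57833 in KO. Muscle identity markers, such as Ckm, summed to 21923 to 33138 FPKM in WT and 27588 to 36317 in KO. For slow or oxidative fibres 3 of 6 were lower, with sums of 126 to 790 FPKM in WT and 65.2 to 393 in KO. Their part in the results above was not tested. Across all mice, with group and time means taken away, Plin1 correlated with Dgat2 at r = 0.32, with Lipe at 0.24 and with Plin5 at 0.09. For Cidec the values were 0.33 with Dgat2, 0.23 with Lipe and 0.24 with Plin5. For Adipoq they were 0.23, 0.10 and 0.13.

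The next comparison asked what Bmal1 in muscle fibres alone restores. Against KO, 7 of 10 members differed in Mu-RE mice of 10 weeks, 4 higher and 3 lower, beside 34.6% of all genes. At 26 weeks 6 of 10 differed (4 higher, 2 lower), beside 33.9%, and under TRF 6 of 10 (4 higher, 2 lower), beside 36.5%. These comparisons use the same KO mice as those with WT, so opposite signs in both are in part built in, and the values are given side by side.

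Plin5 in Mu-RE mice of 10 weeks lay between 2.63 and 5.03 log2 FPKM around a median of 3.87, against the KO median of 4.86. It was lower in Mu-RE than in KO by 1.22, 1.03 and 1.12 at 10 weeks, 26 weeks and under TRF, read from differences of -1.22 (SE 0.16), -1.03 (SE 0.20) and -1.12 (SE 0.14). The largest of the 3 adjusted p was 7.6e-05. Pnpla2 was lower as well, with differences of -0.54 (SE 0.08), -0.55 (SE 0.14) and -0.40 (SE 0.14). The last had an adjusted p of 0.024 and lost its call without the first mouse of each time (adjusted p = 0.085).

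Dgat2 in Mu-RE mice of 10 weeks ranged from 2.72 to 4.21 around 3.47, and 3 of 25 Mu-RE mice lay within the KO range. It was higher than in KO by 0.94 (SE 0.11), 0.59 (SE 0.11) and 1.03 (SE 0.12) at the 3 settings. Plin2 was higher by 0.30 (SE 0.05), 0.27 (SE 0.05) and 0.29 (SE 0.06), and Plin3 by 0.38 (SE 0.12), 0.42 (SE 0.14) and 0.46 (SE 0.09). The Plin3 calls ad libitum were lost when 1 mouse of each time was left out (adjusted p up to 0.19 at 10 weeks and 0.10 at 26 weeks).

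Abhd5 missed at 10 weeks with a difference of 0.14 (SE 0.06, adjusted p = 0.051), and was higher in Mu-RE by 0.21 (SE 0.05) at 26 weeks and 0.25 (SE 0.05) under TRF. G0s2 was higher at 10 weeks by 0.92 (SE 0.23, adjusted p = 0.0017), a call lost without the first mouse of each time (adjusted p = 0.077). Lipe was lower at 10 weeks, with a difference of -0.27 (SE 0.09, adjusted p = 0.012), lost in the same way (adjusted p up to 0.13). At 26 weeks neither passed, ad libitum or under TRF. Plin4 and Dgat1 passed at none of the 3 settings. None of the 10 members passed the test of whether Mu-RE minus KO changed from 10 to 26 weeks, beside 1.18% of all genes.

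Set against WT, Mu-RE mice differed in 3 of 10 members at 10 weeks, all lower, beside 26.5% of genes. They were Plin3 (-0.50, SE 0.10), Abhd5 (-0.25, SE 0.04) and Dgat2 (-0.47, SE 0.10). The comparison uses the same WT mice as KO against WT. Plin5 differed from WT by 0.03 (SE 0.16) and Plin2 by -0.01 (SE 0.05). At 26 weeks Plin5 differed from WT by 0.37 (SE 0.21, adjusted p = 0.17) and under TRF by 0.36 (SE 0.15, adjusted p = 0.054). A test that is not passed does not show equal levels.

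At 26 weeks 2 of 10 members differed between Mu-RE and WT, Pnpla2 (0.42, SE 0.13) and Plin4 (0.36, SE 0.14), both higher, beside 30.8%. Both calls were lost with gene length as a covariate, at adjusted p of 0.16 and 0.18. This covariate is, for each library, the slope of its values on gene length over all genes. Under TRF 4 of 10 differed, beside 32.1%: Plin2 was higher (0.15, SE 0.05), and Plin3 (-0.38, SE 0.09), Abhd5 (-0.12, SE 0.04) and Dgat2 (-0.31, SE 0.09) were lower. The Plin2 and Abhd5 calls were lost with gene length as a covariate, at adjusted p of 0.12 and 0.090.

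Restoring Bmal1 in muscle was also compared in mice that already had it in the brain. RE-RE differed from Br-RE mice in 6 of 10 members at 10 weeks, 4 higher and 2 lower, beside 32.2% of genes, and in 6 of 10 at 26 weeks (4 higher, 2 lower), beside 35.3%. Plin5 and Pnpla2 were lower in RE-RE at both ages, and Plin2, Plin3 and Dgat2 were higher at both. Abhd5 was higher at 10 weeks only by the test (0.27, SE 0.06, against 0.13, SE 0.06), and Plin4 at 26 weeks (0.54, SE 0.19). When 1 mouse of each time was left out, calls were lost for Plin4 at 26 weeks (adjusted p up to 0.14), for Plin2 at 26 weeks (0.095) and for Plin3 at both ages (0.074 and 0.22).

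Plin5 at 10 weeks ranged from 3.99 to 5.40 log2 FPKM in 23 Br-RE mice (median 4.66) and from 2.20 to 5.21 in 24 RE-RE mice (median 3.65). Of the RE-RE mice, 4 of 24 lay inside the Br-RE range. The difference was -1.13 (SE 0.13, adjusted p = 1.1e-09) at 10 weeks and -1.03 (SE 0.15) at 26 weeks. Dgat2 had medians of 2.76 in Br-RE and 3.89 in RE-RE mice of 10 weeks, a difference of 1.13 (SE 0.13, adjusted p = 3.2e-09), and 0.76 (SE 0.13) at 26 weeks.

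Pnpla2 was lower in RE-RE by 0.45 at 10 weeks (difference -0.45, SE 0.13, adjusted p = 0.0075) and its difference at 26 weeks was -0.64 (SE 0.13). Its lowest RE-RE values at 10 weeks, down to 4.51 against a median of 6.15, were in the 2 libraries that stood apart. Without the libraries that stood apart the difference was -0.31 (adjusted p = 0.0064), and without the first mouse of each time -0.21 (adjusted p = 0.11). Plin5 minus Plin3 was above 0 in 23 of 23 and 22 of 22 Br-RE mice, at 10 and 26 weeks, and in 5 of 24 and 8 of 24 RE-RE mice.

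Whether the muscle effect depended on Bmal1 in the brain was tested as RE-RE minus Br-RE against Mu-RE minus KO. None of the 10 members passed at 10 weeks, beside 0.0203% of all genes. None passed at 26 weeks either, beside 0% of all genes by limma, of which 537 had an unadjusted p under 0.05. For Plin5 the 2 effects were -1.13 and -1.22 at 10 weeks, and for Dgat2 1.13 and 0.94. The largest estimates of a dependence at 10 weeks were those of G0s2 (-0.88, SE 0.37, adjusted p = 0.40) and Lipe (0.35, SE 0.17, adjusted p = 0.50). A test that is not passed does not show equal effects.

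**Figure D3:**
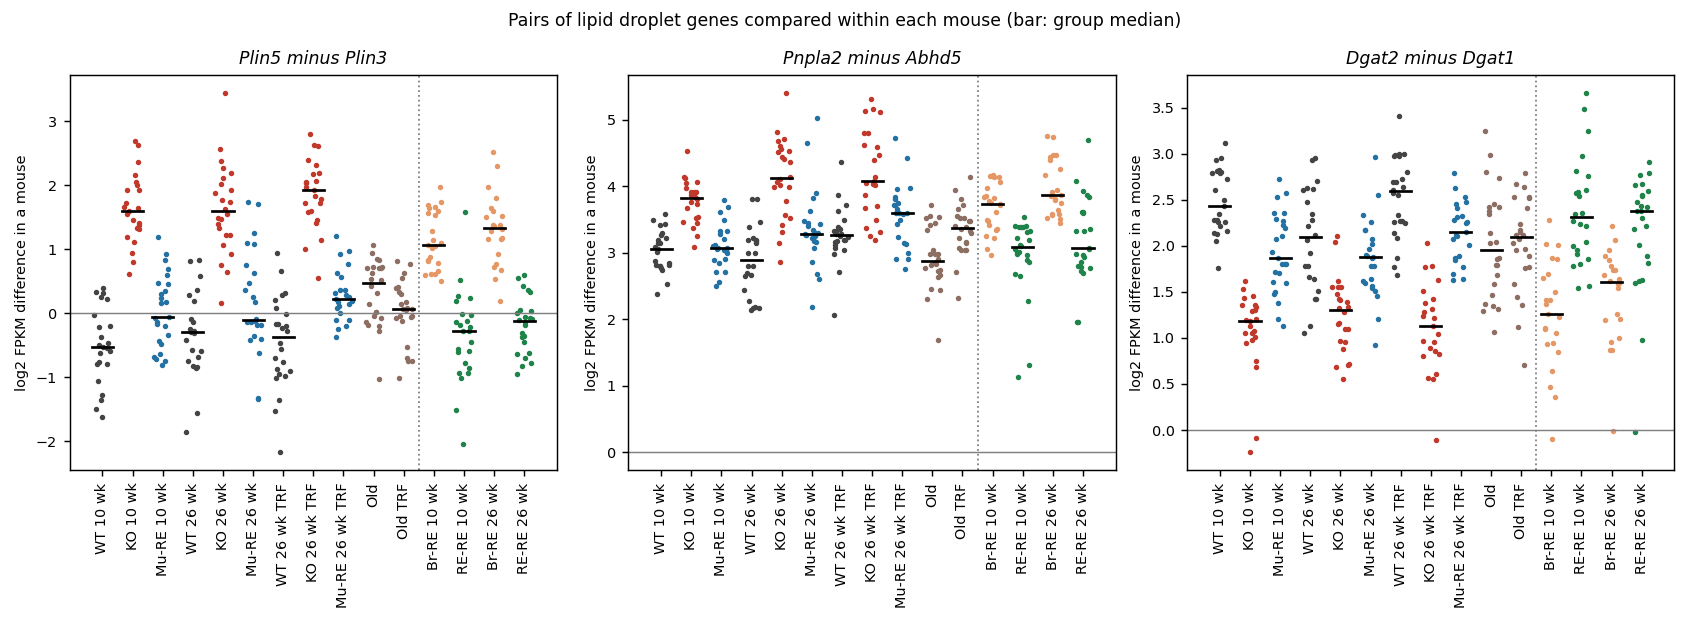
Difference in log2 FPKM between 2 genes of the same mouse (y axis) in each of the 15 groups (x axis); points are mice and bars are group medians. Plin5 minus Plin3 is above 0 in every KO and Br-RE mouse. Dgat2 minus Dgat1 has medians of 1.13 to 1.30 in the KO groups, and of 1.26 and 1.61 in Br-RE mice of 10 and 26 weeks. In all other groups its medians lie between 1.86 and 2.59.

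Other genes of the same pathways were read from fixed lists. At 10 weeks 3 of 10 other droplet coat and growth genes differed between KO and WT, 2 higher and 1 lower, beside 41.8% of all genes called. The list's median difference was 0.04 beside 0.00 for all genes. Of 14 other triglyceride synthesis genes 5 were higher and 1 lower, a share near the 41.8% of all genes. Agpat3, an acyltransferase of an earlier step, was higher in KO by 0.86 (SE 0.06), and Gpat4, of the first step, was lower (-0.32, SE 0.03). The synthesis list's median was 0.00.

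Of 17 other lipases and lipolysis genes 6 were higher and 7 lower in KO of 10 weeks, beside 41.8% of all genes called, with a median of -0.03. Ces1d, a carboxylesterase and triglyceride hydrolase, showed a far larger difference than any member. It was 2.18 to 4.01 log2 FPKM in WT and -4.53 to -0.91 in KO, a difference of -6.02 (SE 0.22, adjusted p = 3.6e-25). The KO values were very low, with a mean of -3.08 log2 FPKM, so the size of this difference is less certain. In Mu-RE mice Ces1d was 3.10 to 4.49, and in RE-RE mice of 10 weeks its median was 4.84 against -2.42 in Br-RE. Abhd6, a monoglyceride lipase, was also lower in KO (-1.01, SE 0.06), while Pnpla3, a paralogue of ATGL, was higher (1.66, SE 0.14), as were Fabp3, the fatty acid carrier of muscle (1.17, SE 0.15), and the monoglyceride lipase Mgll (0.50, SE 0.08). Pnpla2 and Pnpla3 were higher together while Ces1d and Abhd6 were lower, so lipases did not move one way.

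Of 17 fasting and PPAR target genes 7 were higher and 3 lower in KO of 10 weeks, beside 41.8% of all genes called, with a median of 0.30. Angptl4, a fasting-induced inhibitor of lipoprotein lipase, was higher by 2.42 (SE 0.45) and Acadm, of fatty acid oxidation, by 0.61 (SE 0.07). Ppara and Ppargc1a, regulators of these genes, were lower (-0.65, SE 0.21, and -0.95, SE 0.12). Against KO, Mu-RE mice had 6 of the 17 lower and none higher at 10 weeks, a share near the 34.6% of all genes, among them Angptl4 (-1.48, SE 0.43) and Acadm (-0.50, SE 0.06).

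The ages of 10 and 26 weeks were compared within WT, KO and Mu-RE mice. In WT 3 of 10 members were lower at 26 weeks, beside 37.0% of all genes: Plin3 (-0.47, SE 0.11), Dgat2 (-0.35, SE 0.11) and Pnpla2 (-0.21, SE 0.08). With gene length as a covariate Dgat2 and Pnpla2 lost their calls, at adjusted p of 0.25 and 0.57. Dgat2 medians were 3.93 and 3.67, and the ranges of both ages overlapped.

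In KO 4 of 10 members were higher at 26 weeks, beside 25.3%: G0s2 (0.81, SE 0.29), Pnpla2 (0.40, SE 0.11), Dgat2 (0.39, SE 0.11) and Dgat1 (0.21, SE 0.06). The G0s2 call was lost without the libraries that stood apart (adjusted p = 0.091) and with mice left out (up to 0.14), and those of Pnpla2 and Dgat1 without the first mouse of each time (adjusted p = 0.082 and 0.052). In KO 4 of 6 markers of slow or oxidative fibres were higher at 26 weeks. The summed markers of these fibres had medians of 147 and 436 FPKM at 10 and 26 weeks in KO. The same sums had medians of 169 and 449 FPKM in Mu-RE mice and of 263 and 218 FPKM in WT. Their part in these differences was not tested. In Mu-RE mice 3 of 10 members were higher at 26 weeks, beside 32.4%: Pnpla2 (0.38, SE 0.12), Abhd5 (0.11, SE 0.04) and Dgat1 (0.11, SE 0.04). Each of these 3 calls was lost when 1 mouse of each time was left out, with adjusted p up to 0.13, 0.32 and 0.17.

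In old WT mice 2 of 10 members differed from WT of 26 weeks ad libitum, both higher coat genes, beside 24.2%. Plin4 ranged from 4.15 to 6.13 log2 FPKM at 26 weeks (median 5.19) and from 4.59 to 6.80 in old mice (median 5.77), with a difference of 0.62 (SE 0.12, adjusted p = 0.00020). Plin5 had medians of 3.44 and 3.94 and a difference of 0.62 (SE 0.18, adjusted p = 0.010), lost without the first mouse of each time (adjusted p = 0.085). Against WT of 10 weeks 4 of 10 differed, beside 41.5%: Plin4 (0.40, SE 0.12) and Dgat1 (0.17, SE 0.05) were higher, and Plin3 (-0.50, SE 0.12) and Dgat2 (-0.28, SE 0.11) lower. The Dgat2 call was lost when 1 mouse of each time was left out (adjusted p up to 0.41), and that of Dgat1 likewise (0.057).

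Under TRF 2 of 10 members differed between old and 26-week WT mice, beside 9.84%. Dgat2 was lower in old mice (-0.47, SE 0.09, adjusted p = 0.00015), with medians of 3.76 and 4.17, and so was Plin3 (-0.28, SE 0.08, adjusted p = 0.022). The Plin3 call was lost without the sex term (adjusted p = 0.077) and when 1 mouse of each time was left out (up to 0.20). Plin4 differed by 0.27 (SE 0.14) and did not pass here.

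In WT of 26 weeks 6 of 10 members were higher under TRF than ad libitum and none lower, beside 41.0% of all genes, of which 2065 were higher and 1978 lower. Dgat2 medians were 3.67 ad libitum, with a range of 2.61 to 4.46, and 4.17 under TRF, with a range of 3.59 to 5.03. The difference was 0.64 (SE 0.11, adjusted p = 1.6e-05). Pnpla2 was higher by 0.42 (SE 0.09), Plin3 by 0.42 (SE 0.09), Plin4 by 0.44 (SE 0.13), Lipe by 0.38 (SE 0.09) and Dgat1 by 0.18 (SE 0.05). When 1 mouse of each time was left out, the calls of Plin4 and Dgat1 were lost (adjusted p up to 0.18 and 0.056).

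In KO none of the 10 members passed the test of TRF against ad libitum feeding, beside 14.2% of all genes. In Mu-RE mice only Dgat2 passed (0.40, SE 0.11, adjusted p = 0.010), beside 16.9%, and it was lost without the second mouse of each time (adjusted p = 0.14). In old mice none of the 10 passed, beside 0.142%, although Pnpla2 (0.36, SE 0.10, adjusted p = 0.091) and Lipe (0.33, SE 0.10, adjusted p = 0.12) had estimates near those of younger WT.

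The feeding responses were compared by direct tests. Dgat2 responded less in KO than in WT: its responses were -0.04 (SE 0.12) and 0.64 (SE 0.11), and the difference of -0.68 (SE 0.16, adjusted p = 0.0019) stood beside 27.5% of all genes. Pnpla2 gave -0.41 (SE 0.17, adjusted p = 0.067) and did not pass. No member passed between Mu-RE and WT, beside 34.8%, or between Mu-RE and KO, beside 0.0608%. None passed between old and 26-week WT mice, beside 2.10%, where Dgat2 was nearest at -0.53 (SE 0.16, adjusted p = 0.052).

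Time of day was read as a fitted 24 h wave, whose amplitude is the log2 distance from the mean level to the peak. G0s2 was the most rhythmic member, with a rhythm called in 7 of 15 groups, followed by Lipe in 4 and Plin5 and Dgat2 in 3. Plin4 had a called rhythm in 2 groups, and Plin3, Pnpla2 and Abhd5 in 1. Plin2 and Dgat1 had none, with amplitudes of at most 0.20 and 0.14.

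In WT of 10 weeks 3 of 10 members were rhythmic, G0s2, Plin5 and Lipe, beside 5.84% of all genes. The mean of G0s2 was 3.0 log2 FPKM at ZT8 (range 2.29 to 3.68 in 4 mice) and 6.49 at ZT16 (range 5.98 to 7.18 in 4 mice), with no overlap. Its amplitude was 1.65 (SE 0.26) with a peak at ZT17.1 (SE 0.6 h, adjusted p = 0.0018), a 9.90-fold range from trough to peak. The inhibitor of ATGL was thus highest in the night, the active phase of mice.

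Lipe ran nearly opposite: its mean was 2.42 at ZT8 and 1.52 at ZT16, with an amplitude of 0.40 (SE 0.08) and a peak at ZT7.0 (SE 0.8 h, adjusted p = 0.0095). Plin5 had means of 4.29 at ZT8 and 2.68 at ZT16, an amplitude of 0.59 (SE 0.13) and a peak at ZT5.5 (SE 0.9 h, adjusted p = 0.028). Each of the 3 calls was lost when 1 mouse of each time was left out, with adjusted p up to 0.056 for G0s2, 0.10 for Lipe and 0.19 for Plin5.

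**Figure D4:**
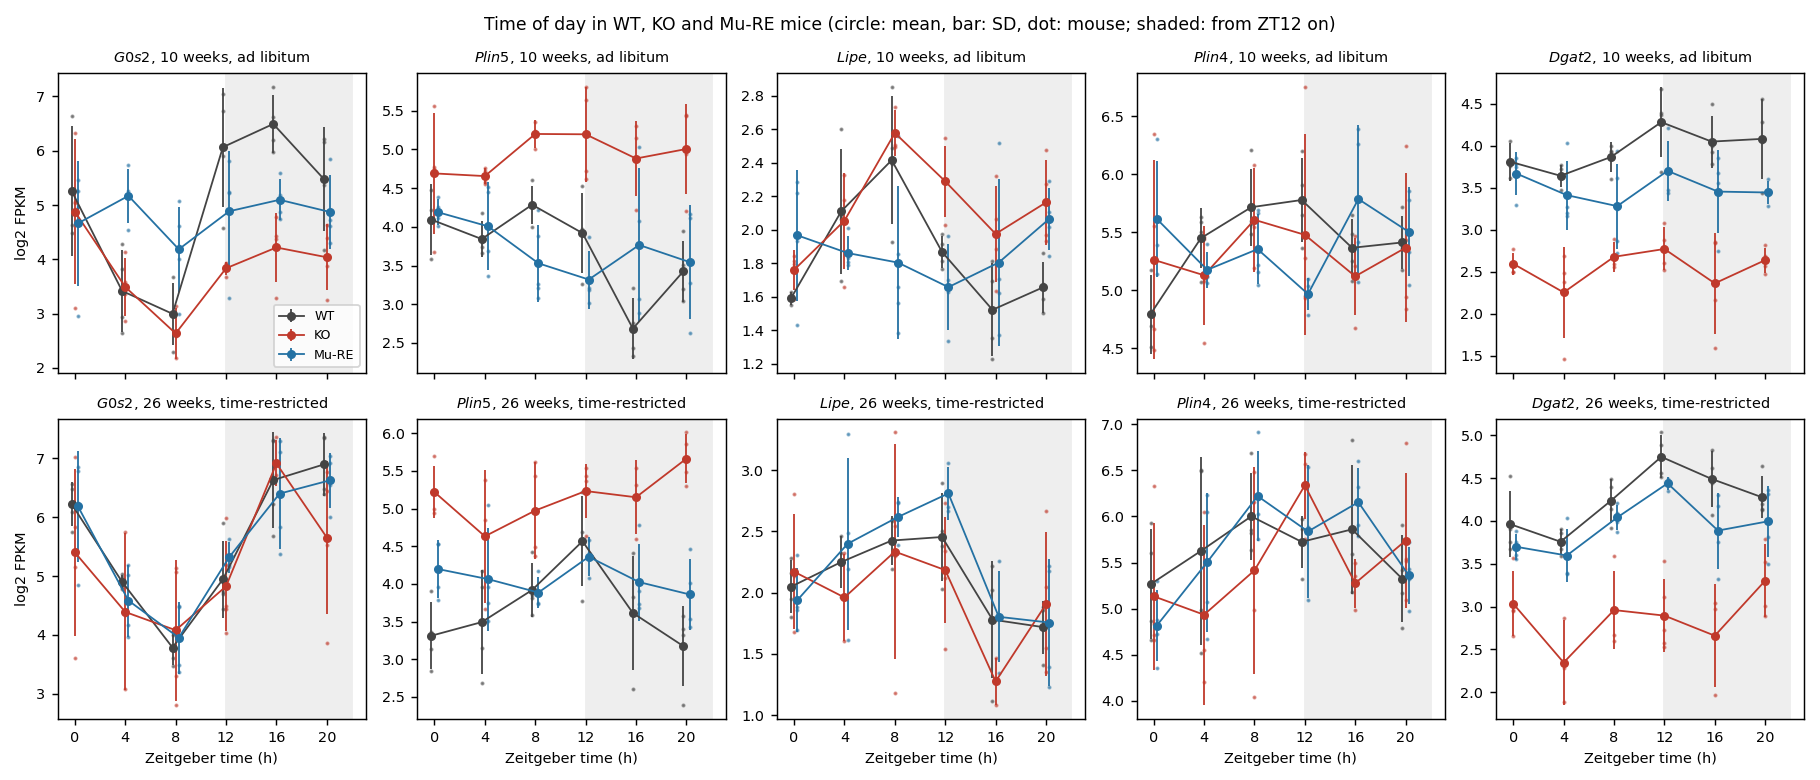
Level (log2 FPKM, y axis) of 5 genes against zeitgeber time (h, x axis) in WT, KO and Mu-RE mice at 10 weeks ad libitum (top) and 26 weeks under TRF (bottom); circles are means, bars SD and dots mice. G0s2 in WT of 10 weeks climbs from a mean of 3.0 at ZT8 to 6.49 at ZT16, and under TRF from 3.79 at ZT8 to 6.90 at ZT20.

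In KO of 10 weeks no member was rhythmic, beside 0.0710% of all genes, with 2 of 10 at an unadjusted p under 0.05. G0s2 in KO had means of 2.63 at ZT8, 4.22 at ZT16 and 4.88 at ZT0, with an amplitude of 0.71 (SE 0.23). A direct test of KO against WT rhythms called none of the members, beside 0.517% of genes, and G0s2 had an adjusted p of 0.20 there. In Mu-RE mice of 10 weeks no member was rhythmic, beside 0.0710%, with 1 of 10 at an unadjusted p under 0.05. The rhythm of Lipe differed between Mu-RE and WT (adjusted p = 0.036), beside 1.11%, and that of G0s2 missed (adjusted p = 0.063). Most rhythm differences called among the members, here and below, were unstable. Each round of leaving out 1 mouse of each time lost 3 or 4 of these calls. With 1 variance for all groups 4 were lost, and with gene length as a covariate also 4.

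At 26 weeks ad libitum only G0s2 was rhythmic in WT (amplitude 1.09, SE 0.20, peak ZT18.9), beside 1.04%, and the call was lost with 1 variance for all groups (adjusted p = 0.065) and when 1 mouse of each time was left out (up to 0.74). In KO and Mu-RE mice of 26 weeks no member was rhythmic, beside 0% and 0% of all genes by limma. Of all genes 596 and 1253 had an unadjusted p under 0.05 there, and none of these was a member. In old mice ad libitum none of the 10 passed, beside 1.41%, with 4 at an unadjusted p under 0.05, Lipe nearest (amplitude 0.31, SE 0.07, adjusted p = 0.052).

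Under TRF 4 of 10 members were rhythmic in WT, beside 37.8%. G0s2 had an amplitude of 1.53 (SE 0.14) with a peak at ZT19.7 (SE 0.4 h, adjusted p = 3.4e-07), from a mean of 3.79 at ZT8 to 6.90 at ZT20. Dgat2 had an amplitude of 0.44 (SE 0.08, peak ZT14.1), Plin5 0.61 (SE 0.15, peak ZT10.7) and Lipe 0.38 (SE 0.08, peak ZT7.8). The Plin5 and Lipe calls were lost without the third mouse of each time (adjusted p = 0.13 and 0.055). The synthesis gene thus peaked early in the night, between the lipase Lipe in the day and the inhibitor G0s2 late in the night.

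TRF changed the rhythm of 1 member in WT by the direct test, Plin2 (adjusted p = 0.037), beside 3.92%, though Plin2 was rhythmic in neither group. Mu-RE mice under TRF had 3 of 10 rhythmic members, beside 6.97%: G0s2 (amplitude 1.37, SE 0.19, peak ZT19.3), Lipe (0.52, SE 0.11, peak ZT8.4) and Plin4 (0.64, SE 0.16, peak ZT11.6). The Lipe and Plin4 calls were lost when 1 mouse of each time was left out (adjusted p up to 0.20 and 0.21). In KO under TRF none of the 10 passed, beside 6.20%, with 2 at an unadjusted p under 0.05. G0s2 in KO under TRF had an amplitude of 1.14 (SE 0.34, peak ZT18.2, adjusted p = 0.080), with means of 4.08 at ZT8 and 6.92 at ZT16.

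In old mice under TRF 2 of 10 members were rhythmic, beside 5.71%. G0s2 had an amplitude of 1.74 (SE 0.27, peak ZT18.9, adjusted p = 0.00094), from a mean of 3.43 at ZT4 to 7.23 at ZT20. Dgat2 had an amplitude of 0.38 (SE 0.09, peak ZT14.0), lost when 1 mouse of each time was left out (adjusted p up to 0.24). Ad libitum, G0s2 in old mice had an amplitude of 0.53 (SE 0.29), which did not pass.

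In Br-RE mice of 10 weeks 7 of 10 members were rhythmic, beside 29.0% of all genes. Plin3, Plin4, Pnpla2, Abhd5 and Dgat2 peaked together between ZT14.0 and ZT15.1, with amplitudes from 0.18 (SE 0.05) for Abhd5 to 0.67 (SE 0.10) for Plin4. Plin5 peaked at ZT11.5 (amplitude 0.39, SE 0.07) and G0s2 at ZT19.0 (0.87, SE 0.23). With gene length as a covariate Plin3, Pnpla2, Abhd5 and Dgat2 lost their calls (adjusted p = 0.064, 0.77, 0.54 and 0.47), and 3 or 4 members, by the setting, passed with 1 variance for all groups or time as 6 levels. The G0s2 call was lost under both of these, without the sex term (adjusted p = 0.078) and without the first mouse of each time, where the amplitude was 0.52 (adjusted p = 0.25). Against WT of 10 weeks the rhythms of Plin4 (adjusted p = 0.026), Plin5 (0.0068) and Dgat1 (0.037) differed, beside 19.3%.

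At 26 weeks Br-RE mice had 1 rhythmic member, Lipe (amplitude 0.39, SE 0.08, peak ZT9.8, adjusted p = 0.040), beside 0.690%. RE-RE mice of 10 weeks had 1, G0s2 (1.22, SE 0.23, peak ZT17.7, adjusted p = 0.019), beside 0.588%, and those of 26 weeks had none, beside 0.760%, with 2 of 10 at an unadjusted p under 0.05. When 1 mouse of each time was left out, both calls were lost (adjusted p up to 0.22 for Lipe and 0.20 for G0s2).

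**Figure D5:**
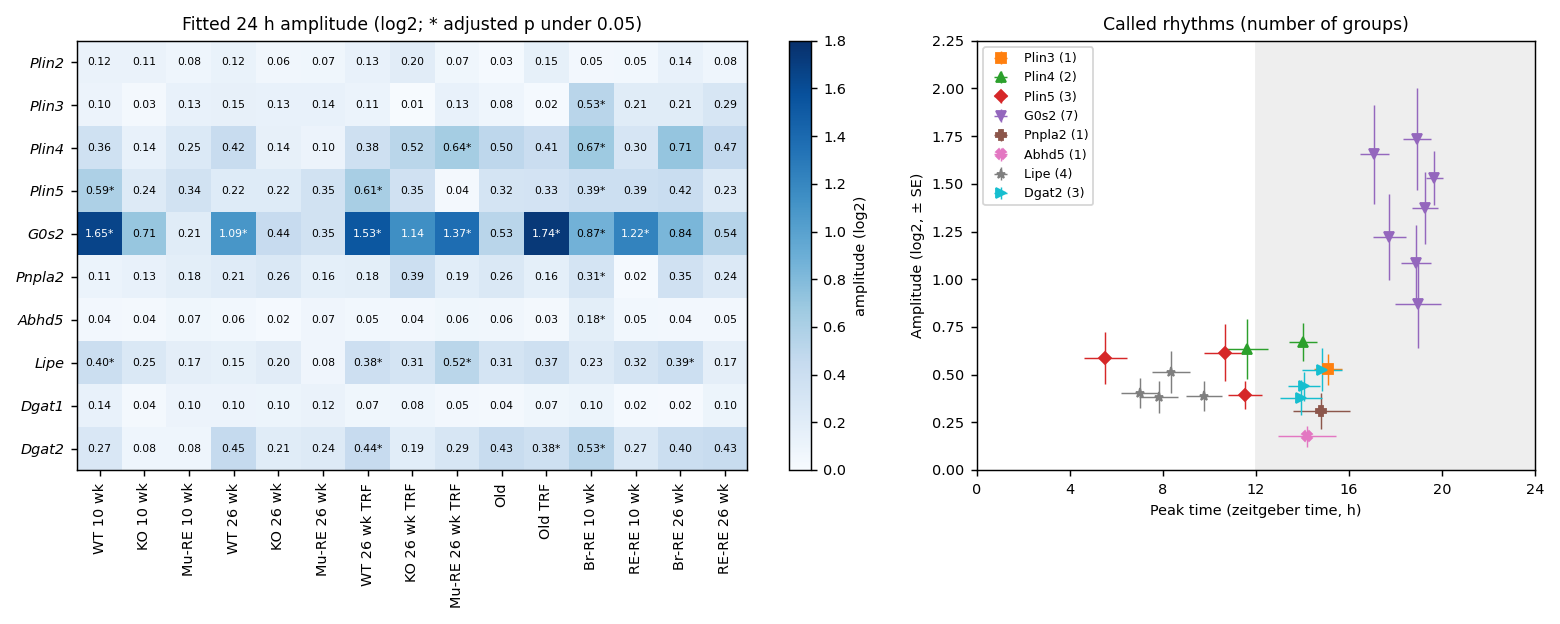
Left, fitted 24 h amplitude (log2, colour and printed value) of each gene (rows) in the 15 groups (columns), with a star where the adjusted p was under 0.05; right, amplitude against peak time (zeitgeber time, h) for the called rhythms, with SE as bars. The 7 called G0s2 rhythms peak between ZT17.1 and ZT19.7, and the 4 of Lipe between ZT7.0 and ZT9.8.

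The peak times of genes called in at least 3 groups were as follows. G0s2 peaked between ZT17.1 and ZT19.7 in 7 groups and Lipe between ZT7.0 and ZT9.8 in 4. Dgat2 peaked between ZT14.0 and ZT14.8 in 3 groups, and Plin5 between ZT5.5 and ZT11.5 in 3.

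Within groups and times some pairs of members varied together from mouse to mouse and others did not. Across all mice with group and time means taken away, the lipase genes Pnpla2 and Lipe correlated at r = 0.73, Plin4 and Lipe at 0.60, and Plin5 and Dgat2 at 0.58. G0s2 went against Lipe (r = -0.48), Plin4 (-0.37) and Pnpla2 (-0.30). Plin2 and Dgat1 reached at most 0.18 and 0.16 with any other member, and Abhd5 went against Lipe (-0.26) and Pnpla2 (-0.20). These are descriptions over mice that share library preparation and depth differences.

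By a fixed rule the genes most like each member were taken from all genes kept, over 66 means of group and time outside Br-RE and RE-RE. Plin5 was most like Clpx (r = 0.91), Lpcat3 (0.90) and Agpat3 (0.89), Dgat2 like Mid1ip1 (0.89), and Abhd5 like Rcan2 (0.86). Pnpla2 was most like Hadha (0.85), Lipe like Tbc1d17 (0.83), Plin3 like Ptpn3 (0.80), Dgat1 like Lemd2 (0.80) and Plin4 like Arrdc2 (0.78). G0s2 (Slc25a29, 0.72) and Plin2 (Slc16a1, 0.72) had no neighbour as close. Over all mice with group and time means taken away, Plin5 was most like Slc25a34 (0.81), Abhd5 like Pdha1 (0.79), Plin4 like Synj2 (0.79) and Pnpla2 like Ipo13 (0.78), and G0s2 was closest to Ddit3 (0.59).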

How the data were processed

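Muscle RNA was sequenced from each mouse singly. HISAT2 (2.1.0) and featureCounts (1.6.2) are named per the submitters' processing notes, as are GRCm38, edgeR (3.30.0) and limma (3.44.1). The authors deposited log2 FPKM values, with an apparent pseudocount of 0.01 FPKM; the centring described in the report was read from the values, and no source used here gives the step behind it. No count test was run. For each pair of groups limma 3.58.1 (R 4.3.3; trend, robust, two-sided) was fitted to the genes with a mean log2 FPKM of at least 0, with a level, a 24 h cosine and sine for each group, and sex. p-values were Benjamini-Hochberg adjusted over 9862 genes and called at 0.05. Rhythms were F tests of cosine and sine. The fit was tested on simulated data. Depth was estimated from the steps between low values, of which a median of 95.0% were whole reads within 0.1. Coordinates come from GENCODE (GRCm38). Alternatives were log2(FPKM + 1), no low filter, no sex term, 1 variance for all groups and time as 6 levels. Others were a gene length covariate, a replicate block, and leaving out 1 mouse of each time. The gene length covariate was 1 value for each library, the slope of its deviations from the gene means on log2 gene length. Leaving out the libraries that stood apart, or 1 WT library, was added after seeing the data. Every member is named; other genes come from fixed lists or the likeness rule. Members and lists were chosen with earlier results of these data known.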

Additional observations from a re-analysis of the deposited data

Results flagged for a closer look

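Among the members 3 of 80 tests of a difference of differences passed, meaning that an effect differed between 2 settings. Of all genes 27.5% passed the test of feeding in KO against WT, and 18.8% that of KO minus WT with age. The feeding response of Dgat2 in KO minus that in WT was -0.68 (SE 0.16), since Dgat2 was higher under TRF in WT (0.64) and differed by -0.04 in KO. For Pnpla2 the KO minus WT difference was larger at 26 than at 10 weeks, by 0.61 (SE 0.14), with differences of 0.97 and 0.36. For Dgat2 the same test gave 0.75 (SE 0.16), with differences of -0.66 at 26 weeks and -1.41 at 10 weeks. At 26 weeks the medians of Dgat2 were 3.67 in WT and 2.92 in KO, and at 10 weeks 3.93 and 2.59. The 2 ages share no mice. The summed markers of slow or oxidative fibres had medians of 147 FPKM at 10 weeks and 436 FPKM at 26 weeks in KO mice. In WT mice the medians of these markers were 263 and 218 FPKM. Their part in these differences was not tested.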

How the results depend on the processing

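Of 84 level calls among the 210 tests of members, 30 were lost under at least 1 alternative, 14 of them under one other than leaving out mice, and none was reversed. Leaving out 1 mouse of each time gave 68 to 77 level calls, 10 to 17 rhythm calls (22 with all mice), 1 to 3 rhythm differences (5) and 3 to 4 differences of differences (3). Level counts then ranged, for Mu-RE against KO at 10 weeks, from 4 to 7; against WT at 26 weeks from 0 to 1 and under TRF from 2 to 4; for age in WT from 1 to 3, KO from 1 to 4 and Mu-RE from 0 to 1; for old against 26 weeks from 1 to 2 and under TRF from 1 to 3; for TRF in KO and Mu-RE from 0 to 1. Rhythm counts ranged from 0 to 3 (WT 10 weeks), 0 to 1 (WT and Br-RE 26 weeks), 3 to 6 (Br-RE 10 weeks), 2 to 4 (WT TRF), 1 to 3 (Mu-RE TRF), 0 to 0 (RE-RE 10 weeks) and 1 to 1 (old TRF). With 1 variance for all groups, level counts fell to 1 for Mu-RE against WT at 26 weeks, Mu-RE with age and old under TRF; rhythms numbered 0 (WT 26 weeks), 3 (Br-RE 10 weeks), 1 (RE-RE 26 weeks), 4 (KO TRF) and 1 (old TRF), rhythm differences 2 and differences of differences 5. Time as 6 levels gave 2 level calls for TRF in Mu-RE, rhythms of 0 (WT 26 weeks, Br-RE 26 weeks, RE-RE 10 weeks), 4 (Br-RE 10 weeks) and 1 (old), and 5 differences of differences. A gene length covariate gave level counts of 1 (Mu-RE against WT at 26 weeks), 2 (the same under TRF) and 1 (WT with age), rhythms of 3 (WT 26 weeks, Br-RE 10 weeks), 0 (Br-RE 26 weeks) and 1 (RE-RE 26 weeks, old), 1 rhythm difference and 5 differences of differences. Without the sex term old under TRF had 1, Br-RE 26 weeks 2 rhythms and RE-RE 10 weeks 0; without the low filter Br-RE 26 weeks had 0. Without the libraries that stood apart 5 differences of differences passed. A cause of these changes was not tested.

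A replicate block gave 1 level call for Mu-RE with age and 1 for old under TRF, and 3 rhythm differences. Same-numbered mice of KO and WT at 10 weeks had a median correlation of 0.12, with 11 of 22 pairs over 0.1. For WT under TRF and ad libitum the median was 0.035, and for RE-RE and Br-RE mice of 10 weeks -0.017. Differently numbered mice were not correlated as a reference, so these values do not settle whether the numbers pair the mice.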

Other observations

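Genes of fasting and PPAR signalling were set beside the members for feeding and age in WT mice. Under TRF 7 of 17 tested were higher and 1 lower than ad libitum at 26 weeks, with a median of 0.18 beside 0.01 for all genes, of which 41.0% were called. Ppara, the receptor that drives fatty acid oxidation genes, was higher by 0.90 (SE 0.28, adjusted p = 0.0093 by limma), Foxo1 by 0.39 (SE 0.14) and Acaa2, of mitochondrial beta-oxidation, by 0.28 (SE 0.07), while Vldlr was lower (-0.27, SE 0.08). In KO mice 1 was higher and 2 lower under TRF, beside 14.2% of all genes called, with a median of 0.02. In old against 26-week WT mice ad libitum 4 of 17 were higher and none lower, with a median of 0.11, beside 24.2% of all genes called. Ucp3, a mitochondrial carrier induced by fasting, was higher by 0.86 (SE 0.25), Foxo1 by 0.42 (SE 0.13) and Cpt1a by 0.38 (SE 0.13). These lists were chosen with earlier results of these data known and are no independent support.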
